A study of Mus musculus with 18 samples.

Results

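Mitochondrial ribosomal protein genes are described here in ribosome-bound RNA of endothelial cells and in whole-tissue RNA of mouse brain, retina and choroid. Members were all genes whose symbol begins with Mrpl or Mrps followed by a digit, which gave 76 of the 14411 genes listed in any of the 3 deposited tables. Brain listed 76 of 13957 genes, Retina 76 of 12827 and Choroid 51 of 7569. By the place of their products, 49 belong to the large and 26 to the small subunit of the mitochondrial ribosome. The last, Mrps36, carries the name of a ribosomal protein but encodes a component of the oxoglutarate dehydrogenase complex.

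All mice carried Cdh5(PAC)-cre/ERT2+ and NuTRAP+ and were induced with tamoxifen. The Cdh5 promoter, active in endothelium, limits the inducible recombinase to the cells that use it, and recombination of NuTRAP puts GFP on ribosomal protein L10a of the cytosolic ribosome. Positive libraries hold RNA pulled down from lysate with an antibody against GFP, a method called translating ribosome affinity purification. Input libraries hold RNA of the lysate kept back before the pull-down, so both fractions share genotype and induction and the Input also contains endothelial RNA. Each of the 6 groups (Choroid, Retina and Brain, Positive and Input each) had 3 libraries, which the labels call biological replicates without giving the number of animals, their age or sex. The p-values therefore measure the spread between these libraries, which may be partly technical.

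The mitochondrial ribosome translates the few messages that mitochondrial DNA encodes, all of them for membrane subunits of the respiratory chain and the ATP synthase. Its RNA is transcribed in the mitochondrion, but every one of its proteins is encoded in the nucleus, made on cytosolic ribosomes and imported, so their messages can be captured by the GFP tag on cytosolic ribosomes. Some of these proteins descend from those of the bacterial ribosome and others were added during the evolution of mitochondria. Among the members, 30 large-subunit and 16 small-subunit genes were classed as encoding homologues of bacterial ribosomal proteins. Another 19 large-subunit and 10 small-subunit genes were classed as mitochondria-specific.

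A few promoters are printed because their genes stand at opposite ends of the results below, 2 of them higher and 2 lower in a Positive fraction, while all 4 hold the same short motif. Each window runs from 250 bases before to 50 bases after the RefSeq transcription start on GRCm38.p6, the assembly that mm10 names, and is written 5′ to 3′ on the gene's strand. Capitals mark matches, on either strand, to CCGGAAG, a core recognised by ETS factors such as GABP (NRF-2), to GCATGCGC, the core of a nuclear respiratory factor 1 site, or to AAGATGGCG, a YY1 site. These genes were chosen after their values were seen. Mrpl33 (chr5:31613701-31614000, plus strand) and Mrpl17 (chr7:105811038-105811337, minus strand) were higher in Brain Positive libraries, and Mrps27 (chr13:99344536-99344835, plus strand) was lower there. Mrps18a (chr17:46110754-46111053, plus strand) was lower in Choroid Positive libraries, where it was listed through Input alone, which favours a lower value.
Mrpl33: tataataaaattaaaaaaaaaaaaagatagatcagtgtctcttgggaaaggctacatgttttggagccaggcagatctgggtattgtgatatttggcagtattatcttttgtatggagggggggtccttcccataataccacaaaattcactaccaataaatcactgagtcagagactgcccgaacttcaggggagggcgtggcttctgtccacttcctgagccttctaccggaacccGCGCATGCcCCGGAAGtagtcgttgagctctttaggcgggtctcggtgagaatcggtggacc
Mrpl17: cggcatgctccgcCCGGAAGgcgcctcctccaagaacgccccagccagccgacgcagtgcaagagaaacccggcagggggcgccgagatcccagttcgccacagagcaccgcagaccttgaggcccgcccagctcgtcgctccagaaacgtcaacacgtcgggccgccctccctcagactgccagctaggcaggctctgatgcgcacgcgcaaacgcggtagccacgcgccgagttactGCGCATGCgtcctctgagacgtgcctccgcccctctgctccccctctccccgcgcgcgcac
Mrps27: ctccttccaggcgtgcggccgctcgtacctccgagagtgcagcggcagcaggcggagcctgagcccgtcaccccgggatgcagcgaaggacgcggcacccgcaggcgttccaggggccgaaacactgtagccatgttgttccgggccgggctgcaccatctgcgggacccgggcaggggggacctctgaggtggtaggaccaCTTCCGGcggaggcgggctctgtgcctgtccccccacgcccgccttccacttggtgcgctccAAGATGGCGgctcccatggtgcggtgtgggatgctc
Mrps18a: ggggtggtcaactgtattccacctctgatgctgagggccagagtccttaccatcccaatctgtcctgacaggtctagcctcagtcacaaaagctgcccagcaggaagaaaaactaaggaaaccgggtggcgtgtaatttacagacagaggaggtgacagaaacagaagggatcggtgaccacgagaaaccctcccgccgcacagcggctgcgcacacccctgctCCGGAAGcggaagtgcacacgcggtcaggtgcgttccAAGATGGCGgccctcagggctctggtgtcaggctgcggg

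RefSeq promoter windows were found for 67 of the 76 genes. The ETS core stood in the windows of 24 of these 67 genes (35.8%), against 9.93% of all 27025 genes with a window and 17.8% of the 11349 listed genes with one. Cytosolic ribosomal protein genes held it in 24 of 60 windows (40%). The nuclear respiratory factor 1 core stood in 8 of 67 (11.9%), against 3.05% of all genes and 5.498% of listed genes, and the YY1 site also in 8 of 67 (11.9%), against 1.64% and 3.12%. The last 3 letters of CCGGAAG are the first 3 of AAGATGGCG, so these matches can overlap, and a match is a run of letters rather than a measured binding site. Of genes higher in Brain Positive libraries, 14 of the 23 with a window held at least 1 motif, of genes lower there 3 of 7, and of genes that did not pass the test 17 of 37. The share was 34 of 67 (50.7%) over all members with a window, 31 of 60 (51.7%) over cytosolic ribosomal protein genes, 13.6% over all genes and 24.3% over listed genes.

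Listed genes summed to between 12325658 and 43219831 estimated counts in Retina and Brain libraries and to between 713733 and 10031274 in Choroid libraries, where Choroid Positive replicate 2 was the shallowest. A list of 10 endothelial markers summed to between 4732 and 5258 CPM (counts normalised for library size) in Brain Positive and between 142 and 170 in Brain Input, and all 10 passed the test as higher. The same sum lay between 2320 and 4572 CPM in Retina Positive and between 192 and 227 in Retina Input (9 of 10 higher), and between 14056 and 16589 CPM in Choroid Positive and between 1522 and 2628 in Choroid Input (10 of 10 higher). Other cells remained in the pull-downs. All 5 rod photoreceptor markers were listed in Retina and summed to between 29609 and 49234 CPM in Positive, against 33647 to 41782 in Input, and none of the 5 passed. In Choroid, 4 of 5 markers of the retinal pigment epithelium were listed and summed to between 1690 and 3467 CPM in Positive, against 21855 to 35762 in Input, and all 4 were lower. The 6 neuronal markers summed to between 2678 and 3013 CPM in Brain Positive, against 6420 to 6909 in Brain Input, and all 6 were lower. The 5 fibroblast markers summed to between 1426 and 2116 CPM in Brain Positive, against 118 to 126 in Brain Input, and all 5 were higher. The part of these cells in the results below was not tested. In bulk RNA of this kind, fewer cells of a type and less RNA per cell cannot be told apart.

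In brain, mitoribosomal genes differed less between Positive and Input libraries than listed genes as a whole. Their median absolute log2 fold change was 0.20, against 0.64 over all genes. Positive values were higher in 28 of the 76 genes and lower in 9, and 39 did not pass (adjusted p of 0.05 over all listed genes, edgeR's quasi-likelihood test). Over all 13957 genes, 38.3% were called higher and 39.7% lower, so the share of members called higher lay near the background and the share called lower (11.8%) lay below it. Their log2 fold changes, Positive over Input, ran between -0.56 and 1.01 with a median of 0.13, against a median of -0.02 over all genes. Only 1 of 76 members (1.32%) differed by a log2 of at least 1 in either direction, against 33.0% of all genes. The 82 genes of cytosolic ribosomal proteins had a median of 0.81, with 81 called higher and none lower. The 88 genes for nuclear-encoded subunits of the respiratory chain and ATP synthase had a median of 0.07, with 28 higher and 17 lower.

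Among the large-subunit genes, 20 of 49 were higher (40.8%) and 3 lower (6.12%) in Brain Positive libraries, with a median log2 of 0.16. Over all genes 38.3% were higher and 39.7% lower, so the share called higher lay near the background. Mrpl33, the homologue of bacterial L33, had 42.4, 36.8 and 37.5 CPM in Brain Positive and 24.0, 16.8 and 17.5 CPM in Brain Input. Every Positive library lay above every Input library, with a log2 fold change of 1.01 ± 0.13 (SE, adjusted p = 6.4e-05 by edgeR's quasi-likelihood test). Mrpl52, whose product has no bacterial homologue, had 36.8, 41.5 and 37.1 CPM in Positive and 30.1, 19.0 and 19.3 in Input, a log2 of 0.76 ± 0.16. Mrpl54, another mitochondria-specific subunit, had 42.0, 41.9 and 36.8 CPM in Positive and 27.7, 23.2 and 23.2 in Input, a log2 of 0.71 ± 0.10. In all of these genes the first Input library was the highest of the 3 Inputs and still lay below the Positive libraries. Mrpl34, the homologue of bacterial L34, followed at 0.65 ± 0.09, with 44.6, 46.0 and 40.8 CPM in Positive and 30.7, 27.4 and 25.9 in Input. The large-subunit genes that fell were Mrpl19, Mrpl1 and Mrpl38. Mrpl19 had 29.3, 31.0 and 31.9 CPM in Positive and 42.5, 42.4 and 36.6 in Input (log2 -0.40 ± 0.08). Mrpl1, the protein of the L1 stalk at the exit site for transfer RNA, had 16.3, 15.5 and 17.5 CPM in Positive and 22.5, 19.6 and 19.0 in Input (log2 -0.31 ± 0.10, adjusted p = 0.018 by edgeR), and its call was lost without Brain Input replicate 1 or Brain Positive replicate 1 or 2. Exons of Mrpl19 overlap the opposite-strand gene Gcfc2 over 39.2% of their length, and whether the counting used strand is not stated, so part of its reads may belong to Gcfc2.

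Of the small-subunit genes, 8 of 26 were higher (30.8%) and 6 lower (23.1%), with a median log2 of 0.12. Both shares lay below those over all genes, 38.3% higher and 39.7% lower. Of the 16 homologues of bacterial proteins 7 were higher (43.8%) and 2 lower (12.5%). Of the 10 mitochondria-specific proteins 1 was higher (10%) and 4 lower (40%), the latter share near that over all genes. Mrps21, the homologue of bacterial S21, had 55.5, 53.3 and 56.6 CPM in Positive and 38.5, 31.8 and 31.9 in Input, a log2 of 0.70 ± 0.09 (adjusted p = 3.6e-05 by edgeR). Mrps24, the homologue of bacterial S3, had 47.6, 52.8 and 49.5 CPM in Positive and 37.2, 29.9 and 29.1 in Input (log2 0.64 ± 0.10). The largest decrease was in Mrps27, which encodes a pentatricopeptide-repeat protein of the small subunit. It had 23.3, 22.5 and 25.5 CPM in Positive and 35.3, 36.6 and 33.4 in Input, with no overlap and a log2 of -0.56 ± 0.08 (adjusted p = 0.00013 by edgeR). Mrps22, a small-subunit gene mutated in human mitochondrial disease, had 16.2, 13.7 and 12.0 CPM in Positive and 19.8, 16.4 and 16.3 in Input (log2 -0.32 ± 0.13). Its call, at an adjusted p of 0.046 by edgeR, was lost when any of 5 of the 6 libraries was left out. Mrps2, the homologue of bacterial S2, had 26.4, 24.6 and 24.2 CPM in Positive and 29.4, 30.7 and 33.1 in Input (log2 -0.31 ± 0.08).

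The 3 paralogues named for bacterial S18 did not move together in brain. In the classes above, Mrps18c counts as a homologue of a bacterial protein, and Mrps18a and Mrps18b count as mitochondria-specific. Mrps18c, the small-subunit homologue, had 36.9, 34.7 and 32.3 CPM in Positive and 31.0, 25.02 and 24.0 in Input, and rose with a log2 of 0.38 ± 0.11. Mrps18b, another small-subunit protein, had 16.7, 16.5 and 14.7 CPM in Positive and 20.1, 20.1 and 20.4 in Input, and fell with a log2 of -0.34 ± 0.09. Mrps18a, whose product sits in the large subunit, had a log2 of -0.16 ± 0.08 that did not pass (adjusted p = 0.096 by edgeR). In retina none of the 3 passed, with log2 values of -0.14 ± 0.13 for Mrps18c, -0.07 ± 0.16 for Mrps18b and -0.07 ± 0.15 for Mrps18a. Mrpl12, the stalk protein homologous to bacterial L7/L12, had 85.7, 83.9 and 80.4 CPM in Brain Positive and 82.5, 71.9 and 68.3 in Brain Input, with overlapping groups and a log2 of 0.17 ± 0.08 that did not pass (adjusted p = 0.075 by edgeR). With the replicate number as a block Mrpl12 passed, at 0.17 and an adjusted p of 0.035. Mrps36 had a log2 of 0.15 ± 0.10 in brain and did not pass.

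**Figure D1:**
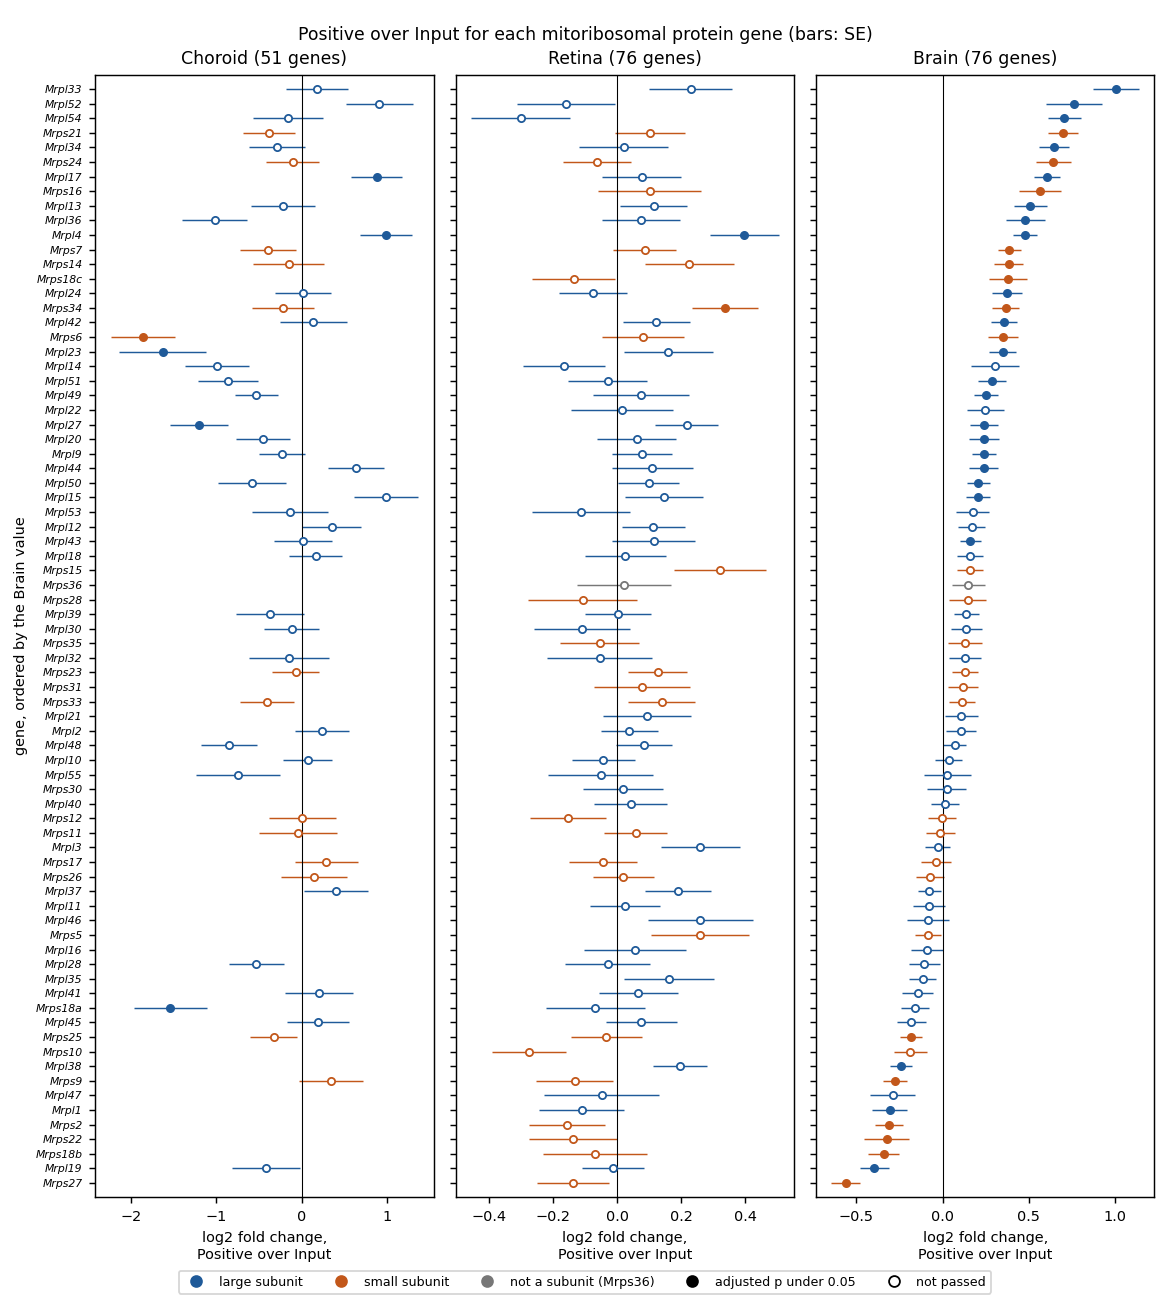
Log2 fold change, Positive over Input (x axis, each panel with its own range), with its SE for each gene (y axis, ordered by the Brain value) in Choroid, Retina and Brain; filled points passed the adjusted p of 0.05. Brain values spread between -0.56 and 1.01 with 37 filled points, Retina values stay between -0.30 and 0.40 with 2, and Choroid values reach -1.86 with 6.

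Differences between Retina Positive and Retina Input libraries were small for these genes, with a median absolute log2 fold change of 0.10, against 0.23 over all genes. Of the 76 members, 2 were higher and 0 lower, where 15.3% of all genes were called higher and 10.8% lower (edgeR's quasi-likelihood test), and 4 members had an unadjusted p under 0.05. Fold changes ran between -0.30 and 0.40 on the log2 scale with a median of 0.05 (all genes -0.03), and no member reached a log2 of 1 in either direction, against 9.36% of all genes. DESeq2's Wald test also called 2 higher and 0 lower. Mrpl4, whose product lines the exit tunnel for nascent proteins, had 41.9, 37.3 and 40.8 CPM in Retina Positive and 33.1, 27.3 and 30.8 in Retina Input, with no overlap and a log2 of 0.40 ± 0.11 (adjusted p = 0.028 by edgeR). Mrps34, a mitochondria-specific small-subunit protein, had 41.3, 45.1 and 36.8 CPM in Positive and 32.4, 31.7 and 33.3 in Input, a log2 of 0.34 ± 0.10 (adjusted p = 0.045 by edgeR). Both calls rested on single libraries, since no member passed without Retina Input replicate 2, without Retina Input replicate 3 or without Retina Positive replicate 1. Mrps34 also lost its call without Retina Input replicate 1 (adjusted p = 0.13 by edgeR) or Retina Positive replicate 2 (adjusted p = 0.11). With the replicate number as a block Mrps34 had an adjusted p of 0.077 by edgeR. The genes that led in brain had small values in retina, with log2 values of 0.23 ± 0.13 for Mrpl33, -0.16 ± 0.15 for Mrpl52, -0.30 ± 0.15 for Mrpl54 and -0.14 ± 0.11 for Mrps27, none of which passed. Across the 76 genes, retina and brain fold changes correlated weakly (Pearson's r 0.21, Spearman's rho 0.24, over genes, which are not independent replicates).

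Choroid needs a caveat before its values. A gene entered the table when every library of either fraction reached a raw value of 50, and 46 of the 51 listed members met this only in Input, as did 4439 of all 7569 genes. Such genes tend to be lower in Positive through the listing itself, so no count over the 51 is read as a result. Not listed were 25 members, 12 of the large-subunit genes, 12 of the small-subunit genes and Mrps36. Of those listed, 2 were called higher and 4 lower (all genes 16.3% higher and 20.2% lower), with a median log2 of -0.15 (all genes -0.01). Under the authors' own scaling factors the split was 1 higher and 8 lower. The count was 3 without Choroid Input replicate 2 (2 higher, 1 lower) and 2 without Choroid Positive replicate 3 (both lower). Without Choroid Positive replicate 2, the shallowest library, 0 were higher and 7 lower.

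Mrpl4 rose again in choroid, with 50.1, 107 and 85.2 CPM in Positive and 38.3, 44.2 and 37.7 in Input (log2 0.98 ± 0.30, adjusted p = 0.024 by edgeR). It met the count minimum in both fractions, and it was the one member called in the same direction in all 3 tissues. Genes listed in choroid through both fractions tended upwards, since 33.1% of these 2993 genes were called higher and 9.89% lower (median log2 0.35). Of the 5 members listed this way 2 were higher (40%) and 0 lower, near that background. In brain Mrpl4 had 70.9, 74.2 and 65.9 CPM in Positive and 51.2, 48.4 and 52.0 in Input, a log2 of 0.48 ± 0.07 that passed whichever library was left out. The choroid call was lost without Choroid Positive replicate 2 (log2 0.75), without Choroid Positive replicate 3, and without Choroid Input replicate 1 or 3. Mrpl17, another large-subunit protein with a bacterial homologue, had 67.7, 138 and 97.4 CPM in Choroid Positive and 42.7, 65.3 and 54.5 in Choroid Input (log2 0.88 ± 0.30, adjusted p = 0.037 by edgeR), and its groups did not overlap. It was also higher in brain, at 64.3, 60.8 and 55.1 CPM in Positive and 40.8, 38.7 and 38.9 in Input (log2 0.61 ± 0.07). In choroid its call was lost under the authors' factors, at 0.77 with an adjusted p of 0.056 by edgeR, and without Choroid Positive replicate 2 or 3 or Choroid Input replicate 1 or 3.

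Mrps6, Mrpl23 and Mrpl27 passed as higher in brain and as lower in choroid, and Mrps18a passed as lower in choroid. All 4 were listed in choroid through Input alone, the fraction where they are high, which favours a lower Positive value, so their choroid values are given as a description. Mrps6, the homologue of bacterial S6, had 30.7, 42.96 and 24.9 CPM in Choroid Positive and 61.1, 168 and 119 in Choroid Input, a log2 of -1.86 ± 0.37. In brain it had 42.2, 49.6 and 48.7 CPM in Positive and 39.6, 34.2 and 36.6 in Input (log2 0.35 ± 0.09), and in retina its log2 of 0.08 ± 0.13 did not pass. Exons of Mrps6 overlap those of Slc5a3, the myo-inositol transporter gene, on the same strand over 159 bases (18.8% of its exon length), so reads there cannot be assigned to either. Slc5a3 itself had log2 values of -0.61 ± 0.53 in choroid, which did not pass, -0.53 ± 0.14 in retina and -0.56 ± 0.13 in brain. Mrpl23, a protein at the rim of the exit tunnel, had 10.97, 7.96 and 7.54 CPM in Choroid Positive and 26.6, 44.2 and 15.1 in Choroid Input (log2 -1.63 ± 0.51), against 32.1, 32.6 and 29.6 in Brain Positive and 25.4, 24.6 and 24.0 in Brain Input (log2 0.35 ± 0.08). A named pseudogene of Mrpl23 exists, so its counts are uncertain. Mrpl27, homologous to bacterial L27 near the peptidyl transferase centre, had 25.2, 25.5 and 26.1 CPM in Choroid Positive and 44.4, 87.3 and 47.2 in Choroid Input (log2 -1.21 ± 0.34), against 57.2, 57.2 and 51.4 in Brain Positive and 51.6, 44.8 and 43.9 in Brain Input (log2 0.24 ± 0.08, with overlapping groups, a call lost when any of 4 libraries was left out). Mrps18a had 15.4, 50.9 and 23.8 CPM in Choroid Positive and 57.2, 113 and 70.1 in Choroid Input (log2 -1.54 ± 0.43). In all 4 genes Choroid Input replicate 2 was the highest library, and without it the log2 values were -1.19 for Mrpl23, -0.84 for Mrpl27 and -1.21 for Mrps18a and did not pass. Mrpl23 also did not pass without Choroid Input replicate 1 (-1.68) or Choroid Positive replicate 3 (-1.50), nor Mrps18a without Choroid Positive replicate 1 (-1.17) or 3 (-1.43). The pigment epithelium markers given above were lower in the same Positive libraries, and their part in these 4 results was not tested.

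**Figure D2:**
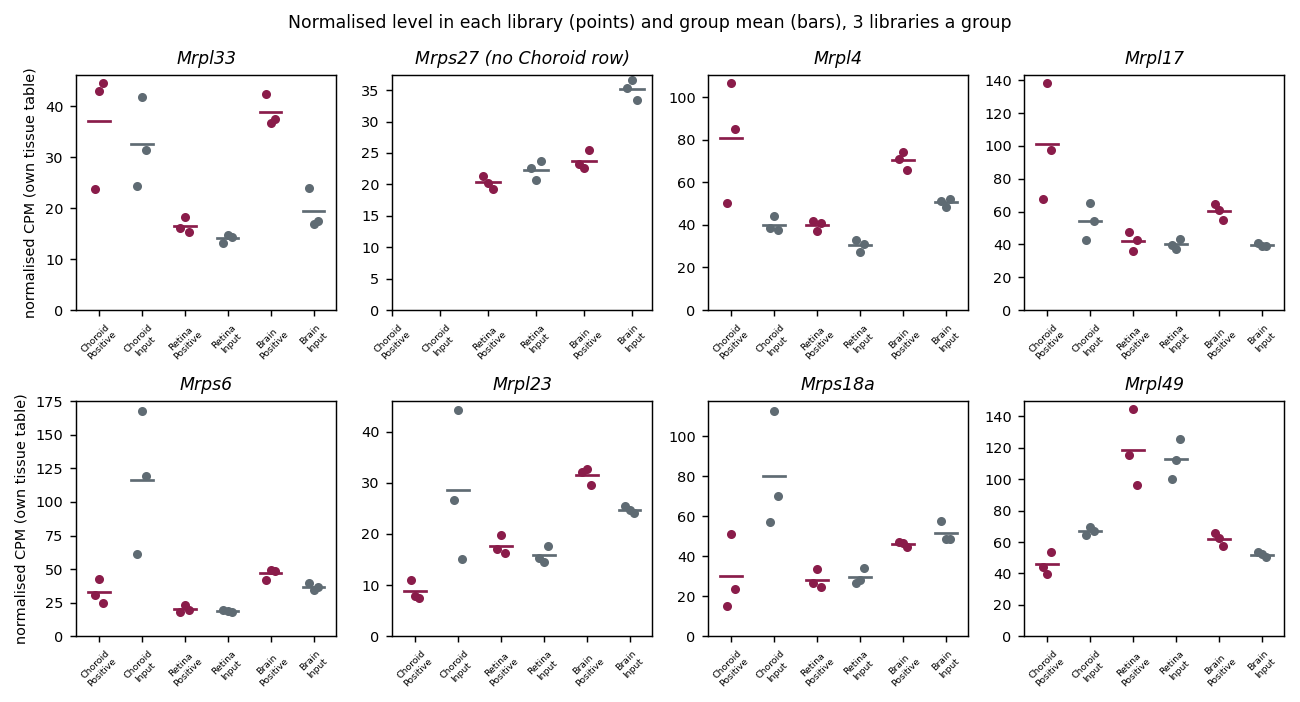
Normalised CPM from each tissue's own fit (y axis, from 0) of 8 genes in every library (points) with the group mean (bars), Positive left of Input within Choroid, Retina and Brain; levels set across tissues here come from separately normalised tables. Mrpl4 lies higher in Positive in each tissue, Mrps6, Mrpl23 and Mrps18a lie lower in Choroid Positive than in Choroid Input, and Mrpl49 is highest in both Retina groups.

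Exon length went with the brain fold changes. Across the 76 genes, log2 fold change and log2 exon length gave a Pearson's r of -0.40 and a Spearman's rho of -0.41 in brain, against -0.15 and -0.19 over 13374 genes with a length; the points share libraries and annotation, so these are descriptions. Members were split at their median of 1253 bases. The 38 shorter members had a median log2 of 0.17, with 16 higher and 2 lower, and the 38 longer ones a median of 0.09, with 12 higher and 7 lower. All genes, split at their own median of 3240 bases, tilted the same way. The 6692 shorter ones had a median of 0.14 (3023 higher, 2102 lower) and the 6682 longer ones a median of -0.18 (2190 higher, 3165 lower). These splits lie at unlike lengths, so the sizes of the gaps cannot be compared. Mrpl33, Mrpl52 and Mrps21, at 478, 418 and 492 bases, were among the shortest. Mrpl17, with 7300 annotated bases of exon, was also higher. In retina Pearson's r and Spearman's rho were 0.12 and 0.13 over the members, against -0.05 and -0.15 over all genes. In choroid they were 0.17 and 0.15 over 51 members, against 0.10 and 0.10 over all genes. For Mrps26, Mrpl51, Mrpl32 and Mrps16 the exon length used exceeds the deposited span of the gene, so the correlations and splits are approximate. The part of length in these results was not tested.

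**Figure D3:**
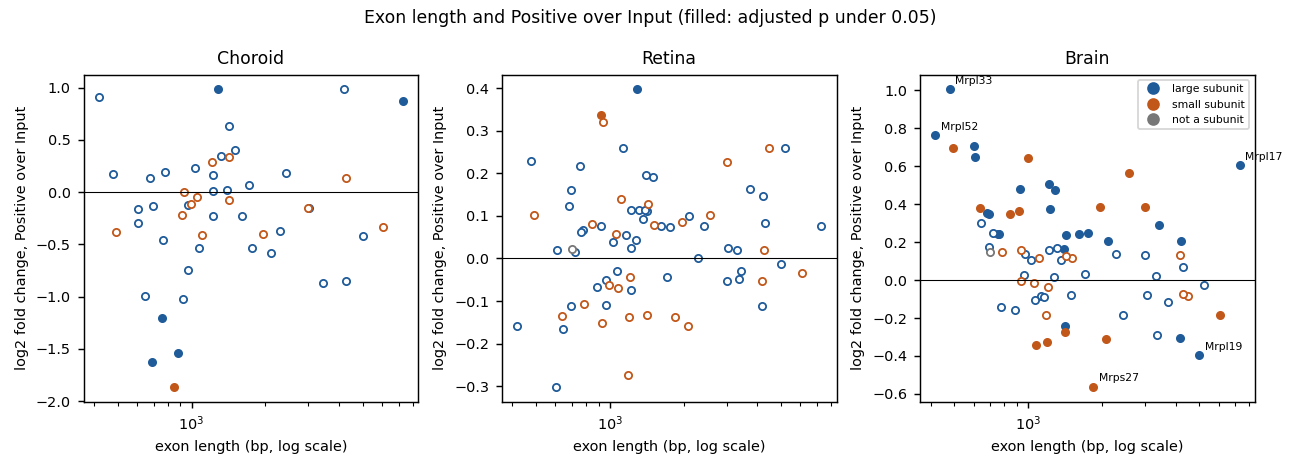
Log2 fold change, Positive over Input (y axis, own range in each panel), against exon length in bases (x axis, log scale) for the members in Choroid, Retina and Brain; colours give the subunit and filled points passed. Pearson's r over the members is 0.17 for Choroid, 0.12 for Retina and -0.40 for Brain, and Mrpl17, the longest, lies above 0 in Brain and Choroid.

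Position on the chromosome was looked at for Mrpl4 after its values were seen. The gene lies on chromosome 9 (21002737 to 21008837, GRCm38.p6), 7101 bases from Icam1, which encodes an adhesion molecule of activated endothelium. Icam1 had log2 fold changes of 2.07 ± 0.36 in choroid, 4.52 ± 0.51 in retina and 4.10 ± 0.12 in brain, and the more distant Icam5, a neuronal gene, had -1.55 ± 0.10 in brain. Over the members with a listed coding gene within 25 kb, the fold change of the nearest one correlated with the member's own at a Pearson's r of 0.04 in choroid (38 genes), 0.25 in retina (69 genes) and 0.29 in brain (69 genes), as a description over genes. Spearman's rho was smaller, at -0.02 in choroid, 0.07 in retina and 0.18 in brain. Whether reads from Icam1 transcripts contribute to Mrpl4 was not tested.

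Levels per kilobase of exon differed far more between members than between fractions. The highest member exceeded the lowest 41.3-fold in Choroid Positive, 19.7-fold in Retina Positive and 33.4-fold in Brain Positive. In Brain Positive, Mrps21 (112 ± 3.40 CPM per kb, SD, n = 3), Mrpl52 (92.0 ± 6.21) and Mrpl20 (88.6 ± 3.87) were highest, and the last pair did not differ beyond its spread. Mrps35 (5.95 ± 0.18), Mrpl1 (3.94 ± 0.24) and Mrpl47 (3.36 ± 0.20) were lowest. In Retina Positive, Mrpl49 (67.3 ± 13.9), Mrps21 (61.5 ± 4.75) and Mrpl34 (54.6 ± 9.87) led within overlapping spreads, and Mrps35 (4.72 ± 0.39), Mrpl1 (3.80 ± 0.07) and Mrpl47 (3.41 ± 0.70) were again lowest. Choroid Positive had Mrpl52 (166 ± 105), Mrps21 (89.8 ± 14.7) and Mrpl33 (77.7 ± 24.3) at the top and Mrpl32 (7.28 ± 3.76), Mrpl48 (7.001 ± 0.08) and Mrpl19 (4.01 ± 0.47) at the bottom, where the Mrpl52 mean rests on 285 CPM per kb in replicate 2, against 90.99 in replicate 1 and 121 in replicate 3. Mrps35, Mrpl1, Mrpl48 and Mrpl19 have between 4162 and 5000 annotated bases of exon, and how much of this length is transcribed in these tissues was not tested. The exon length used for Mrpl32, 3013 bases, exceeds the deposited span of the gene, so its level per kilobase and its rank are uncertain. On the log2 scale the member levels of Positive and Input correlated across genes at a Pearson's r of 0.83 in choroid (51 genes), 0.99 in retina and 0.97 in brain (76 genes each). 

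An interaction term tested whether the Positive to Input ratio differed between tissues. It covered the 7270 genes listed in all 3 tables, which hold 51 members. The other 25 members, listed in Brain and Retina but not in Choroid, were left out, also from Retina minus Brain. Among those left out, Mrps27, Mrps22, Mrps18b, Mrps2, Mrpl1 and Mrpl38 were called lower in brain, and Mrps16 and Mrps18c higher. For Retina minus Brain, 0 members were higher and 5 lower (11.0% and 18.8% of all genes), namely Mrpl54, Mrpl33, Mrps24, Mrpl34 and Mrps21. Leaving out single libraries gave between 1 (without Brain Input replicate 2 or 3) and 8 (without Choroid Positive replicate 2). This result depends on scaling: with DESeq2's size factors the median over all genes moved from -0.09 to 0.13 and 0 members passed, while DESeq2's own Wald test, with the same factors, called 3 (1 higher, 2 lower). Mrpl54 had a difference of -1.05 ± 0.32, Mrpl33 of -0.82 ± 0.30 and Mrps24 of -0.75 ± 0.21, and under those factors they stood at -0.83, -0.60 and -0.53 and did not pass. The Mrpl33 call was lost in 10 of 18 single omissions and the Mrpl54 call in 2, while Mrps24 kept its call in all 18. For Choroid minus Brain, 3 members were higher and 12 lower (21.4% and 30.5% of all genes), or 5 higher and 8 lower with DESeq2's size factors, which moved the median of all genes from -0.09 to 0.05. Mrps6 (-2.05 ± 0.36), Mrpl23 (-1.71 ± 0.41) and Mrpl36 (-1.35 ± 0.30) had the largest negative differences, all 3 of them listed in choroid through Input alone, and Mrpl15 (0.92 ± 0.33), Mrps9 (0.84 ± 0.26) and Mrpl4 (0.65 ± 0.26) the largest positive ones. The Mrpl4 difference did not pass without Choroid Positive replicate 2, where it was 0.45, or under 10 other single omissions. The Mrpl15 difference did not pass in 4 of 18 single omissions, and without Choroid Positive replicate 2 it was 0.69. For Choroid minus Retina, 6 were higher and 6 lower (21.7% and 23.3% of all genes), led by Mrpl52 (1.21 ± 0.41), Mrpl15 (1.03 ± 0.34) and Mrpl17 (1.00 ± 0.27) upwards and by Mrps6 (-1.73 ± 0.37), Mrpl23 (-1.47 ± 0.41) and Mrps18a (-1.34 ± 0.40) downwards, the last 3 again listed through Input alone. Mrpl52 in choroid rests on Positive replicate 2, at 119 CPM against 38.0 and 50.4 in the other Positive libraries and 36.7, 32.4 and 36.5 in Input, and without that library the difference was 0.69 and did not pass. The Mrpl52 difference also did not pass without Retina Positive replicate 2 (1.09). Mrpl15 did not pass without Choroid Input replicate 3 (0.83) or Choroid Positive replicate 3 (0.85), nor Mrps18a without Choroid Positive replicate 1 (-0.94). Listing through Input favours a lower choroid ratio, so these negative differences are descriptions. Mrpl4, Mrpl15, Mrpl17 and Mrpl52 were listed through both fractions, where choroid values tended upwards as given above, and Mrps9 through Input.

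Among the 51 members shared by all 3 tables, those differing between retina and brain were lower in retina, with 1 exception per fraction. The 25 members not listed in Choroid were not compared. In Positive libraries, Retina over Brain, 1 of 51 members was higher and 19 lower, where 29.5% of all genes were higher and 27.6% lower, and the member median was -0.36 (all genes 0.00). Input libraries gave 1 higher and 22 lower (all genes 34.7% and 32.8%) with a median of -0.32 (all genes 0.01). The genes lower in both fractions numbered 13, which is 68.4% of those lower in Positive and 59.1% of those lower in Input. Positive and Input libraries of a tissue come from the same lysates, so these counts are not independent. The same overlap was not counted over all genes, so it is a description and not a result about the members. With DESeq2's size factors 23 were lower in Positive and 27 in Input, with the higher gene unchanged in number. Input counts were sensitive to single libraries, at 13 lower without Brain Input replicate 1 and 14 lower without any of the Retina Input libraries. Lower retina values were not particular to the members. Of 78 respiratory chain genes, 0 were higher and 55 lower in Positive, and 0 higher and 62 lower in Input. Of 82 cytosolic ribosomal protein genes, 0 were higher and 75 lower in Positive, but 9 higher and 11 lower in Input. The part of rod RNA, which was present in Retina Positive and Retina Input at the levels given above, was not tested.

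Mrpl49, a mitochondria-specific large-subunit protein, was the exception in both. It had 139, 171 and 109 CPM in Retina Positive and 68.3, 64.6 and 60.1 in Brain Positive, a log2 of 1.12 ± 0.17 (adjusted p = 0.00032 by edgeR). In Input the values were 137, 153 and 169 CPM in Retina and 68.9, 66.9 and 64.0 in Brain (log2 1.20 ± 0.10). Mrpl52 had 19.5, 14.3 and 18.3 CPM in Retina Positive and 38.2, 42.9 and 38.8 in Brain Positive (log2 -1.20 ± 0.31). Mrps12, the homologue of bacterial S12 at the decoding centre, had 25.5, 21.4 and 23.9 CPM in Retina Positive and 53.4, 52.0 and 48.9 in Brain Positive (log2 -1.12 ± 0.17), and 28.6, 31.4 and 31.4 in Retina Input and 70.9, 59.9 and 59.8 in Brain Input (log2 -1.06 ± 0.17). Groups did not overlap in either fraction. Mrps24 had 25.2, 26.3 and 22.8 CPM in Retina Positive and 49.4, 54.6 and 51.8 in Brain Positive (log2 -1.07 ± 0.16). Mrpl12 had 44.96, 42.1 and 46.8 CPM in Retina Input and 106, 92.1 and 86.8 in Brain Input (log2 -1.09 ± 0.13), and its Positive value was close, at -1.05 ± 0.21. Mrps25 had 78.1, 71.1 and 85.5 CPM in Retina Input and 152, 141 and 145 in Brain Input (log2 -0.90 ± 0.16), but 58.2% of its exon length overlaps Nr2c2 on the opposite strand.

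Choroid comparisons with the other tissues carry the same caveat on listing. In Positive libraries, Choroid over Brain, 1 member was higher and 17 lower (28.9% and 24.0% of all genes), with a median of -0.44 (all genes 0.08), and without Choroid Positive replicate 2 the lower count was 28. Mrpl17 was the higher one, with 74.97, 152 and 109 CPM in Choroid Positive and 66.8, 62.9 and 57.6 in Brain Positive (log2 0.78 ± 0.23), a call lost without Brain Positive replicate 2 (0.76) or 3 (0.70). Mrpl23 had 12.2, 8.73 and 8.42 CPM in Choroid Positive and 33.3, 33.8 and 31.0 in Brain Positive (log2 -1.68 ± 0.23). Mrpl55 (log2 -1.09 ± 0.30) and Mrpl48 (log2 -1.09 ± 0.14), both large-subunit proteins, were the next lowest. The Mrpl55 call was lost without Choroid Positive replicate 1 (-0.96). A named pseudogene of Mrpl48 exists, so the Mrpl48 counts are uncertain. In Input libraries, Choroid over Brain, 3 were higher and 26 lower (36.6% and 37.1% of all genes), with Mrps6 at 66.2, 177 and 130 CPM in Choroid Input and 50.9, 43.9 and 46.5 in Brain Input (log2 1.38 ± 0.26). Mrpl36 and Mrps21 followed at 0.46 ± 0.19 and 0.46 ± 0.18 with overlapping groups, and both calls were lost in 6 of 9 single omissions. Without Choroid Input replicate 2 they stood at 0.24 and 0.23. Mrps12 (-1.31 ± 0.19), Mrpl37 (-1.24 ± 0.14) and Mrps9 (-1.18 ± 0.17) were lowest.

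Choroid over Retina divided the members evenly in Positive libraries, with 9 higher and 9 lower (31.4% and 31.0% of all genes) and a median of 0.02 (all genes -0.03). Mrpl52 (log2 2.00 ± 0.35), Mrpl17 (1.11 ± 0.23) and Mrpl33 (1.03 ± 0.25) were highest, and Mrpl49 (-1.44 ± 0.19), Mrpl23 (-1.02 ± 0.24) and Mrpl50 (-0.99 ± 0.25) lowest. Mrpl49 had 48.6, 43.7 and 60.2 CPM in Choroid Positive, against 139, 171 and 109 in Retina Positive. In Input libraries 10 were higher and 16 lower (34.8% and 44.7% of all genes), or 12 higher and 10 lower with DESeq2's size factors, which moved the median over all genes from -0.18 to -0.05 and that of the members from -0.04 to 0.09. Mrps6 stood at 66.2, 177 and 130 CPM in Choroid Input and 26.9, 26.2 and 24.6 in Retina Input (log2 2.24 ± 0.27), followed by Mrps18a (1.06 ± 0.20) and Mrpl33 (0.84 ± 0.21). Mrpl49 (-1.09 ± 0.10), Mrps11 (-0.83 ± 0.17) and Mrpl2 (-0.76 ± 0.12) were lowest.

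Summed over the 51 shared genes, members reached 1779, 2652 and 2130 CPM in Choroid Positive, 2259, 2297 and 1906 in Retina Positive and 2986, 2996 and 2882 in Brain Positive. Input sums were 1914, 2996 and 2294 CPM in Choroid, 2323, 2363 and 2489 in Retina and 3163, 2778 and 2717 in Brain. The Retina and Brain sums did not overlap in either fraction, and the Choroid Input sums ran across both. The Choroid Positive sums overlapped those of Retina Positive and lay below all of Brain Positive. Positive and Input sums overlapped within choroid and within brain, and in retina all Positive sums lay below all Input sums on this common scale. In the retina table's own fit, over 76 genes, the sums were 2465, 2548 and 2231 CPM in Positive and 2261, 2284 and 2439 in Input and overlapped.

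**Figure D4:**
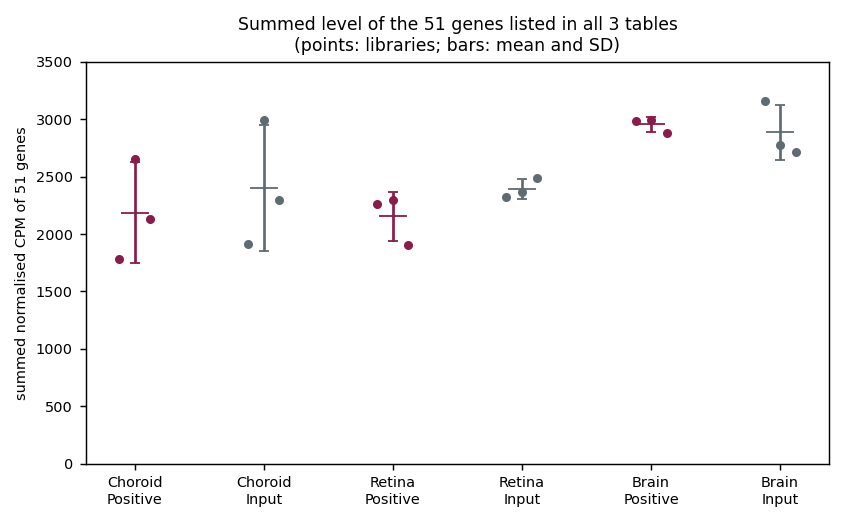
Summed normalised CPM of the 51 genes listed in all 3 tables (y axis, from 0) in each library (points) with mean and SD (bars), Positive left of Input. Retina averages 2154 CPM in Positive and 2392 in Input, Brain averages 2955 in Positive and 2886 in Input, and Choroid spreads widest, with SDs of 439 in Positive and 549 in Input.

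Other genes of mitochondrial translation are given with the shares called over all genes, which were 38.3% higher and 39.7% lower in brain, 15.3% and 10.8% in retina, and 16.3% and 20.2% in choroid. Of 7 mitoribosomal proteins listed under other symbols, 2 were higher in Brain Positive (Aurkaip1 at a log2 of 0.41 and Chchd1 at 0.29) and 2 lower (Ptcd3 at -0.68 and Dap3 at -0.40). In retina 0 of 7 passed by edgeR, 1 with an unadjusted p under 0.05, and in choroid 1 of 5 was lower. Of 12 mitochondrial translation factors 3 were higher and 3 lower in brain, 0 and 1 in retina, and 0 of 5 in choroid passed, none with an unadjusted p under 0.05. Guf1, a mitochondrial elongation factor, had 12.1, 12.1 and 13.4 CPM in Brain Positive and 21.5, 21.5 and 22.4 in Brain Input (log2 -0.79 ± 0.09). Of 30 listed genes for mitoribosome assembly and ribosomal RNA, 7 were higher and 6 lower in brain and 0 and 2 in retina, and 0 of 12 in choroid passed, none with an unadjusted p under 0.05. Mterfd2, which encodes the partner of the ribosomal RNA methyltransferase Nsun4, had 40.8, 54.8 and 51.6 CPM in Brain Positive and 26.5, 24.5 and 25.4 in Brain Input (log2 0.95 ± 0.11), while Nsun4 itself was lower in retina (log2 -0.44 ± 0.10). Mpv17l2, an assembly factor, rose in brain by 0.83 ± 0.12.

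Among regulators of mitochondrial biogenesis, 6 of 13 were higher and 4 lower in brain, 1 and 3 of 12 in retina, and 3 and 1 of 7 in choroid. In brain the 10 called were 76.9% of the list, against 78.1% of all genes, so this count lay at the background. Ppargc1a, the coactivator PGC-1alpha, had 16.8, 19.1 and 14.5 CPM in Choroid Positive and 49.6, 81.95 and 52.9 in Choroid Input (log2 -1.89 ± 0.34), and 34.2, 27.6 and 34.5 CPM in Brain Positive and 55.8, 56.1 and 59.7 in Brain Input (log2 -0.83 ± 0.09). It was lower in retina as well, at -0.34 ± 0.11, and its relative Ppargc1b was lower in retina (-0.56 ± 0.11) and brain (-0.71 ± 0.17). Yy1, a zinc finger factor, was higher in every tissue, at a log2 of 0.98 ± 0.24 in choroid, 1.03 ± 0.23 in retina and 0.78 ± 0.07 in brain. Gabpb1 and Gabpb2, which encode beta subunits of GABP, rose in choroid, by 1.17 ± 0.39 and 0.79 ± 0.24, and Gabpb2 rose in brain (0.87 ± 0.07) but fell in retina (-0.60 ± 0.15). Ict1, a peptidyl-tRNA hydrolase built into the large subunit, was the protein under another symbol that fell in choroid (log2 -0.97 ± 0.31). In choroid, Ppargc1a and Ict1 fell short of 50 in a Positive library, so they were listed through Input alone, which favours a lower value. Gabpb1 fell short in an Input library and was listed through Positive alone, which favours a higher value. The choroid values of these genes are given as a description. All differences given here are between messages and were not compared with protein.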

How the data were processed

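RNA was measured in 18 libraries, 3 for each fraction of each tissue, made with a directional kit per the labels. The deposited raw values were taken for expected counts, because they are not whole numbers. Genes that reached 50 in all libraries of 1 fraction are listed, per the file headers. The deposited normalized values, which the authors put on a log2 scale, served only to recover the authors' scaling factors. Per the submitters' processing notes, mm10 and DESeq were used. Neither aligner nor counter, nor whether strand was used, is given in the sources used here.

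Expected counts were rounded and each tissue was fitted apart in edgeR 4.0.16 (R 4.3.3) with TMM scaling and a quasi-likelihood F test. The low-count filter (filterByExpr, minimum 10) took out 0 genes. Interactions used 18 libraries, and tissue comparisons within a fraction 9, over the 7270 genes of all 3 tables, which the authors had filtered separately. Benjamini-Hochberg adjustment ran over all tested genes, with a threshold of 0.05. CPM values come from the fit of the comparison. The fits were tested on simulated data. Exon lengths are unions of GENCODE release M21 transcripts paired with curated RefSeq messages (76 of 76 members), in place of the planned RefSeq exons. For Mrps26 (4278 bases), Mrpl51 (3427), Mrpl32 (3013) and Mrps16 (2572) they exceed the span between the deposited start and end of the gene. In these genes they are therefore not the exons that the authors counted.

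Per the labels' protocol, Input and Positive of a number come from the same lysate. Their deviations from the group means correlated above 0.1 in 8 of 9 pairs. Alternatives were DESeq2 1.42.0 (size factors or Wald test), no filter, a filter at the median level, the replicate block, leaving out each library and, added after seeing the data, the authors' factors. Genes were named by rank among those past the threshold: up to 6 each way per tissue where the groups did not overlap, 3 each way per tissue comparison, those called in all tissues or in opposite directions, the extremes of level per length, and fixed paralogues. Members and lists were chosen with earlier results of these data known.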

Additional observations from a re-analysis of the deposited data

Results flagged for a closer look

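Tests between tissues covered only the 51 members listed in all 3 tables. Members whose Positive over Input difference was tested to differ between tissues (interaction over 18 libraries, edgeR) are given here as values, with each tissue's own log2 fold change in the report. For Retina minus Brain these were Mrpl54 (-1.05), Mrpl33 (-0.82) and Mrps24 (-0.75), none of which passed with DESeq2's size factors. For Choroid minus Brain they were Mrpl15 (0.92), Mrps9 (0.84), Mrpl4 (0.65), Mrps6 (-2.05), Mrpl23 (-1.71) and Mrpl36 (-1.35). For Choroid minus Retina they were Mrpl52 (1.21), Mrpl15 (1.03), Mrpl17 (1.00), Mrps6 (-1.73), Mrpl23 (-1.47) and Mrps18a (-1.34). Several of these calls, those of Mrpl33, Mrpl4, Mrpl15 and Mrpl52 among them, were lost in single omissions given in the report. In choroid, Mrps6, Mrpl23, Mrpl36, Mrps9 and Mrps18a were listed through Input alone, which favours a lower choroid ratio. Groups of 3 libraries are too small for a rule on single outlying libraries.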

How the results depend on the processing

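Counts of members past the threshold, Positive over Input, were 37 in Brain, 2 in Retina and 6 in Choroid. Leaving out 1 library at a time gave between 29 and 44 in Brain, 0 and 3 in Retina and 2 and 7 in Choroid. For differences between tissues the ranges were 1 to 8 (Retina minus Brain), 11 to 18 (Choroid minus Brain) and 9 to 14 (Choroid minus Retina). In Positive libraries they were 15 to 26 (Retina over Brain), 12 to 29 (Choroid over Brain) and 14 to 20 (Choroid over Retina), and in Input libraries 14 to 31 (Retina over Brain), 23 to 33 (Choroid over Brain) and 17 to 27 (Choroid over Retina). A filter at the median level left few members to test and gave 23 of 48 in Brain, 1 of 21 in Retina and 1 of 3 in Choroid. Under it the differences gave 0 (Retina minus Brain), 1 (Choroid minus Brain) and 1 (Choroid minus Retina), of 2 members each. The Positive comparisons under it gave 1 (Retina over Brain), 0 (Choroid over Brain) and 1 (Choroid over Retina) of 1 member, and the Input comparisons 2 of 2 each. For Retina minus Brain, DESeq2 size factors gave 0 and the DESeq2 Wald test 3; the cause was not tested.

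With the replicate number as a block, which pairs Positive with Input of the same lysate, Retina gave 1, Brain 40 (30 higher, 10 lower) and Choroid 8 (2 higher, 6 lower). Whether libraries of the same number in different tissues share animals is not known here. Across tissues their deviations from the group means correlated above 0.1 in 6 of 18 pairs, and blocked counts stayed within 1.5 times. The block gave Mrps34 in Retina an adjusted p of 0.077, and in Input, Choroid over Brain, Mrpl36 (0.054) and Mrps21 (0.053) lost their calls, while Mrpl12 in Brain passed (0.035); it changed no other named call. Of 1186 alternative values for 124 named results, 1080 kept direction and call, 93 lost the call, 3 gained it and 6 changed sign, all of the last in Retina genes that did not pass. Without 1 library each, these ran from -0.21 to 0.0432 for Mrps18a, -0.16 to 0.05 for Mrps18b, -0.12 to 0.13 for Mrps36 and -0.0152 to 0.181 for Mrps6. Levels per length of Mrpl1 moved with the longest transcript in place of all exons, to 4.62 CPM per kb in Retina Positive, 4.99 in Retina Input, 4.79 in Brain Positive and 5.94 in Brain Input. The shallow choroid libraries, the listing of most choroid members through Input alone, and 3 libraries per group limit what these comparisons can show.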
